A study of Mus musculus with 12 samples.

Results

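The 29 smooth muscle contractile genes described here were chosen by name from 54532 genes measured in the total colon of mice, as genes of the contractile machinery, its anchors, its ion channels and its transcription factors. All 29 were found, and all 29 passed the filter on low values that left 24102 genes for testing. The study asked how loss of STING, an adaptor of cytosolic DNA sensing encoded by Tmem173, in myeloid cells alters dextran sulfate sodium (DSS) colitis. DSS in the drinking water injures the colon epithelium. Total colon RNA was sequenced in 12 libraries, 3 per group.

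Tmem173fl/fl mice (here fl/fl) carried a floxed Tmem173 gene and no Cre, and both lines had the C57BL/6N background. Tmem173iΔmye mice (here iΔmye) also carried Lyz2-Cre ert2, a tamoxifen-inducible recombinase driven by a gene of macrophages and neutrophils, so that muscle cells were not its target. All mice, controls included, had 5 tamoxifen injections. The untreated groups drank water, and the colitic groups, aged 6 to 8 weeks, drank 2.5% to 3% DSS for 7 days and then water for 1 day. No group carried the Cre without the floxed gene. Libraries are named by the numbers in their labels, which are 1, 2 and 3, except 1, 2 and 5 in colitic iΔmye mice.

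Library totals ran from 13823237 to 18718915 counts. Tmem173 itself was measured at 10.4, 6.07 and 9.73 FPKM in untreated fl/fl libraries, 7.29, 6.20 and 9.12 in untreated iΔmye, 18.6, 19.2 and 16.6 in colitic fl/fl and 20.7, 10.2 and 13.2 in colitic iΔmye. FPKM scales counts by gene length and library size, so genes can be set side by side. The genotypes overlapped in untreated and in colitic colon, so these 12 libraries did not show the deletion. From relative mRNA levels in colon, the authors report that the myeloid knockout lessened the rise of Tmem173 in inflamed tissue. From immunofluorescence of colon sections, they also report that CD11b-positive myeloid cells of iΔmye mice lost STING. RNA of the total colon does not separate these cells from others. Pancreatic acinar genes also differed between libraries. The summed FPKM of 6 such enzyme genes ran from 43.5 to 7692 over the 12 libraries, with a wide spread within each group. The source of these reads was not tested.

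Smooth muscle shortens when calcium entering through voltage-gated channels binds calmodulin and switches on myosin light chain kinase. The kinase phosphorylates the regulatory light chain, and myosin then pulls on actin filaments that are anchored at dense bodies and adhesion plaques. The colon wall holds visceral muscle in its muscularis layers and in the muscularis mucosae, and vascular muscle and pericytes around its vessels. Serum response factor (Srf) with its partner myocardin (Myocd) switches on most of these genes through a short promoter element named the CArG box.

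The CArG box is 2 C, then a run of 6 A or T, then 2 G. As a pattern it is the same on both strands, while the letters of a single box can differ between them. RefSeq promoter windows of 300 bases (250 before to 50 after the start, GRCm38.p6) were matched for 26 of the 29 members, in 30 windows. Myh11, Actg2 and Myocd had no window. The exact box was found in 3 members, against 1.81% of the 27025 gene symbols with a window. It began 161 bases before the start of Myl9, 227 before that of Vcl, and 82 and 62 before that of Srf. These sequences are shown because they hold the element through which Srf acts on muscle genes, with the box in capitals, from chr2:156775293-156775322 (plus strand), chr14:20929161-20929190 (plus) and chr17:46556215-46556244 (minus).
Myl9: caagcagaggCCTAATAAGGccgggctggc
Vcl: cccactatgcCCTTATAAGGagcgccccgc
Srf: CCATATAAGGagcggcctcgCCATAAAAGG
Other members, Acta2 among them, held no exact match in this window, which says only that these letters are not there.

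In the untreated fl/fl colon the 2 smooth muscle actins led the set on the FPKM scale. Actg2, the enteric gamma actin, had 396 ± 92.7 FPKM (SD, n = 3) and Acta2, the alpha actin of vascular and visceral muscle, 393 ± 42.1, which did not differ beyond their spread. Myl9, the regulatory light chain of myosin, followed at 188 ± 31.1, then Csrp1 at 167 ± 18.2, Des at 157 ± 31.4, Cnn1 at 136 ± 20.2, Myh11 at 117 ± 19.7 and Tpm1 at 111 ± 8.30. From Myl9 to Tpm1, neighbours in this order lay within their spread, and Acta2 lay above Myl9 beyond it. The lowest were Pln at 1.42 ± 0.850, Itga8 at 1.03 ± 0.311 and Myocd at 0.879 ± 0.382. Summed over the 29 genes, FPKM per library was 1828, 2356 and 2140 in untreated fl/fl, 2451, 2559 and 2320 in untreated iΔmye, 2335, 2169 and 2592 in colitic fl/fl, and 2174, 1741 and 2263 in colitic iΔmye. Summed FPKM overlapped between untreated and colitic fl/fl mice, while every colitic iΔmye library lay below every untreated iΔmye library. This order depended on the scale. As a share of all counts the 29 genes made up 0.637% to 0.806% in untreated and 0.966% to 1.06% in colitic fl/fl libraries, without overlap, and 0.822% to 0.880% and 0.672% to 0.888% in iΔmye, with overlap. Summed CPM with TMM scaling overlapped in both genotypes (6849 to 8584 and 8563 to 10019 in fl/fl, 8274 to 9136 and 6917 to 8854 in iΔmye).

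Markers of other muscle were low. The skeletal myosin Myh4 had no count in any library, the 10 skeletal muscle genes, which include Acta1, summed to between 4.31 and 10.2 FPKM, and the 4 cardiac genes to between 0.492 and 2.60. The 5 defining smooth muscle markers Myh11, Actg2, Acta2, Des and Cnn1 summed to between 820 and 1471 FPKM.

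DSS in Tmem173fl/fl mice split the smooth muscle genes. Cald1, Csrp1, Pgm5, Flna and Kcnmb1 rose at least 2-fold, Casq2 fell, and the heavy chain Myh11, Acta2, Cnn1, Mylk, Myl9 and both tropomyosins did not pass the test. Actg2 was at 0.543 times its untreated level, which passed the adjusted p and missed the fold threshold. Calls came from edgeR's quasi-likelihood test and needed a change of at least 2-fold in either direction with an adjusted p (Benjamini-Hochberg, over all genes tested) below 0.05. Of the 29 members, 5 were called higher and 1 lower. Over all genes, 14.9% were called higher and 7.61% lower, so the share of members called (20.7% in both directions) was near the background. At the adjusted p alone, 12 members were higher (41.4%) and 3 lower (10.3%), against 19.5% and 16% of all genes. The median log2 fold change of the members was 0.29, and that of all genes 0.03. In bulk tissue, fewer cells of a type and less RNA per cell cannot be told apart.

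**Figure D1:**
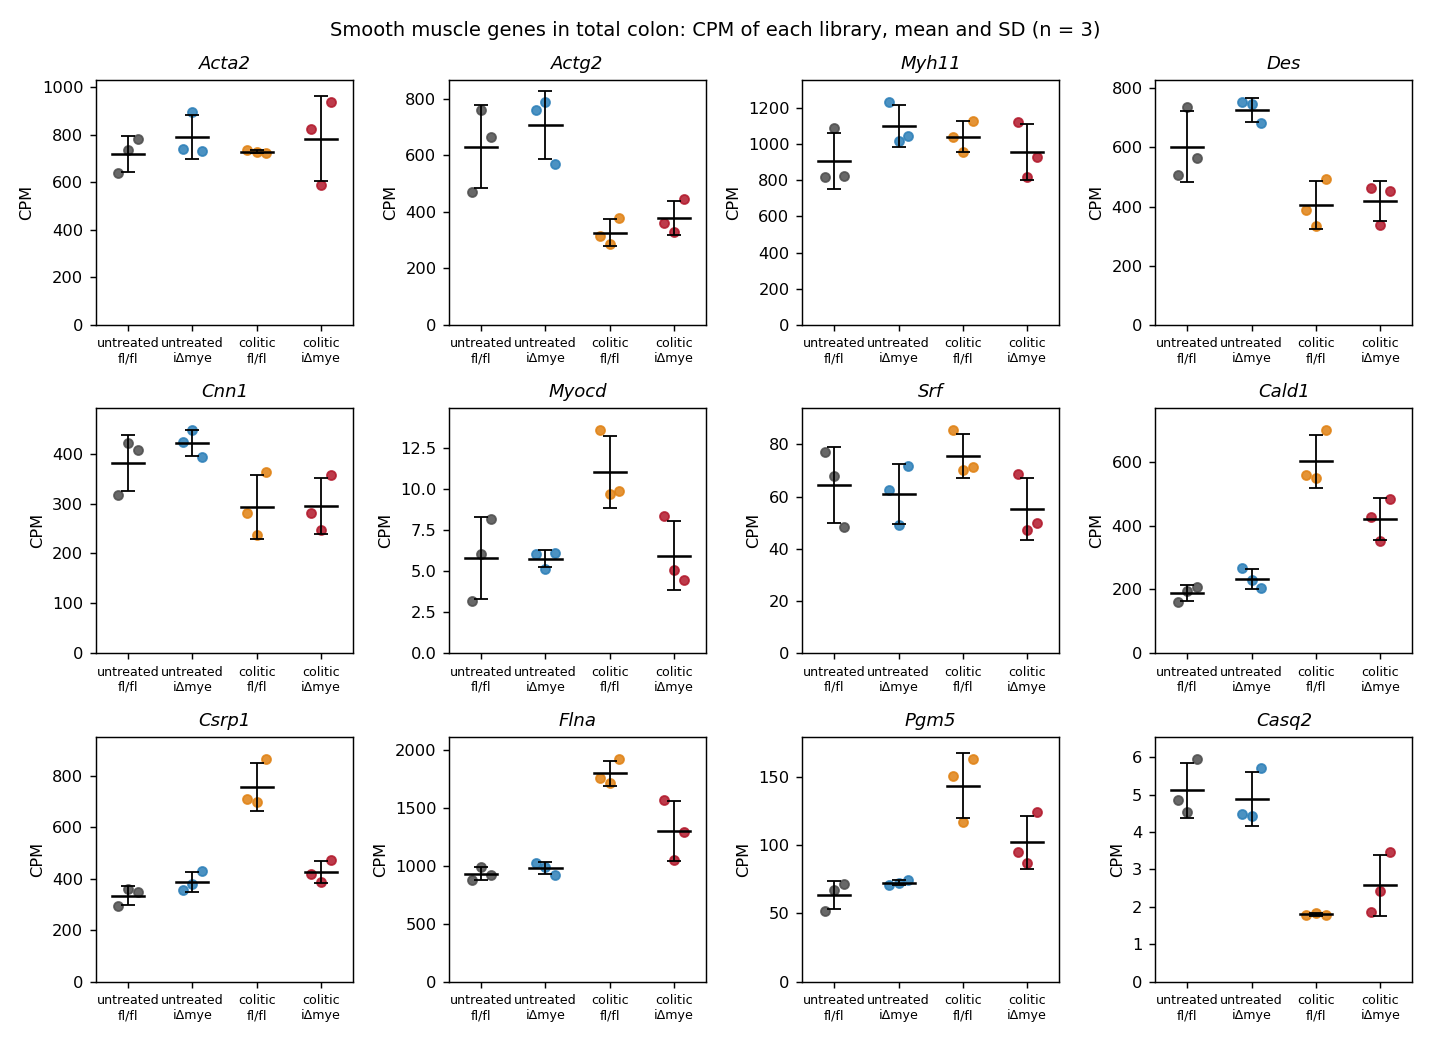
CPM (counts scaled to library size with TMM factors) of 12 smooth muscle genes in each of the 12 libraries; points are libraries, horizontal lines group means and bars the SD over 3 libraries. Actg2 lies lower in both colitic groups than in both untreated groups, Acta2 overlaps between all groups, and the means of Cald1, Csrp1, Flna and Pgm5 are highest in colitic fl/fl mice.

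Among the 7 thin filament genes, Cald1, the caldesmon that restrains actin-activated myosin, had the largest rise of the set. CPM (counts scaled to library size, with TMM factors, and not to gene length) of Cald1 was 162, 196 and 208 in untreated fl/fl libraries and 558, 550 and 698 in colitic ones. The groups stood far apart, with a log2 fold change of 1.74 (SE 0.17, edgeR adjusted p = 4.26e-05). Cald1 (chr6:34598500-34775473, plus strand, GRCm38 as all positions here) makes a long form in smooth muscle and a short form in many other cells, and counts per gene do not separate them.

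Actg2 (chr6:83512905-83536265, minus strand) had 471, 759 and 664 CPM in untreated fl/fl libraries and 316, 286 and 378 in colitic ones. All 3 colitic libraries were below all 3 untreated ones, with a log2 fold change of -0.88 (SE 0.20, edgeR adjusted p = 0.00628). Without untreated fl/fl replicate 1, the lowest untreated library, the value was -1.05 and passed the fold threshold, and without colitic fl/fl replicate 3 it was -1.02. Acta2 (chr19:34241090-34255336, minus strand) had 638, 733 and 783 CPM untreated and 736, 728 and 721 colitic. The colitic libraries sat inside the untreated range, with a log2 fold change of 0.09 (95% interval -0.23 to 0.41, edgeR adjusted p = 0.674).

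Cnn1 (chr9:22099216-22109630), the calponin that binds actin in differentiated muscle, had 318, 420 and 407 CPM untreated and 281, 237 and 363 colitic, which overlapped (log2 fold change -0.31, edgeR adjusted p = 0.242). The tropomyosins lie along the actin filament. Tpm1 was at -0.26 (interval -0.60 to 0.09) and Tpm2 at 0.29 (interval -0.03 to 0.61). Lmod1, a leiomodin that starts actin filaments, was higher in all 3 colitic libraries at a log2 fold change of 0.66 (SE 0.17, edgeR adjusted p = 0.0147), short of 2-fold.

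None of the 4 genes of myosin and its control was called. Myh11 (chr16:14194535-14291372, minus strand), the smooth muscle myosin heavy chain, had 815, 1088 and 824 CPM untreated and 1037, 958 and 1127 colitic. The ranges overlapped, and the log2 fold change was 0.27 (interval -0.10 to 0.63, edgeR adjusted p = 0.240). Myl9 was at 0.31 and Mylk, its kinase, at 0.13, neither past the test. Ppp1r12b, the targeting subunit of myosin phosphatase, was higher in every colitic library at 0.57 (SE 0.15, edgeR adjusted p = 0.0155), under 2-fold.

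**Figure D2:**
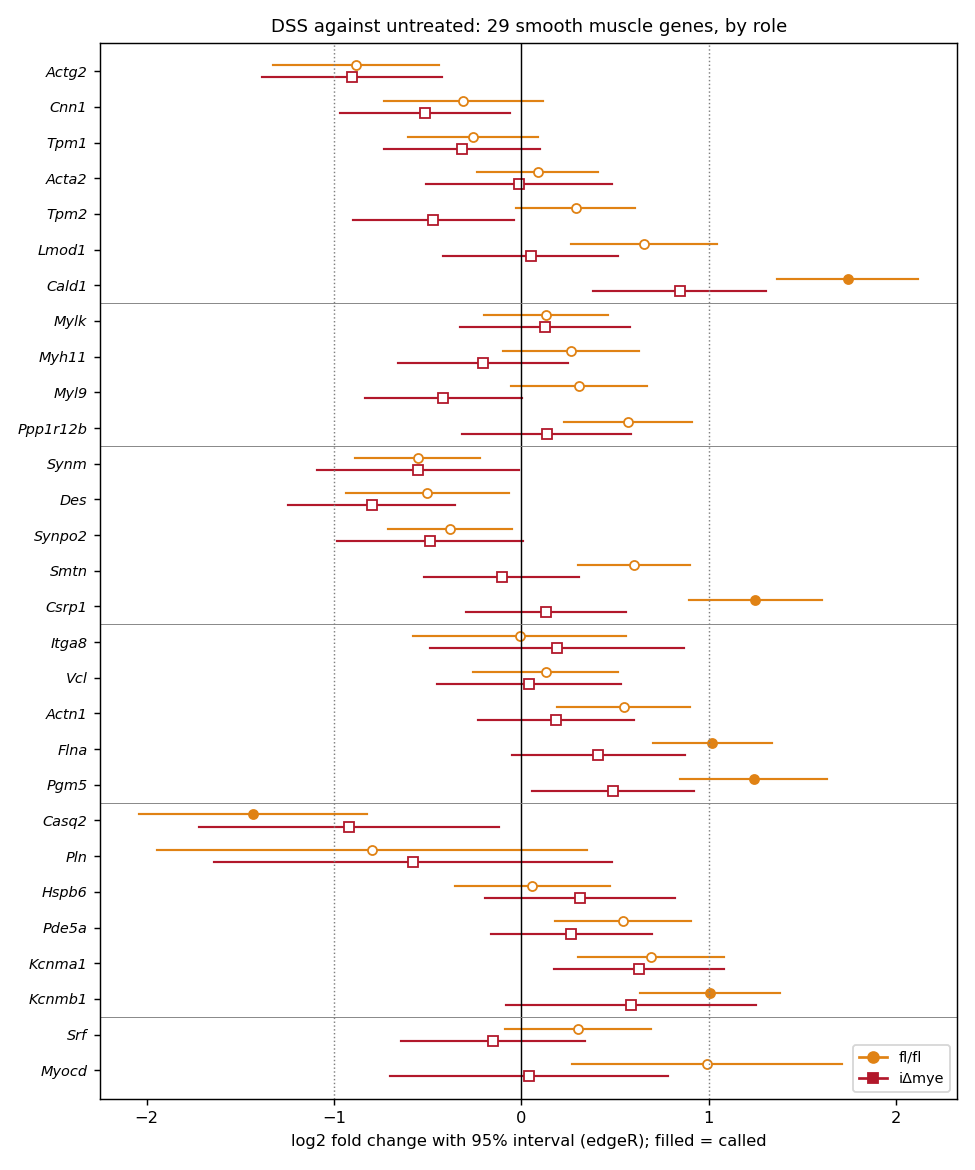
Log2 fold changes of colitic against untreated libraries for the 29 genes, ordered by role and then by their value in fl/fl mice, with 95% intervals from edgeR; circles are fl/fl, squares iΔmye, filled symbols are called genes and dotted lines mark 2-fold. In fl/fl mice 6 symbols are filled and in iΔmye mice none.

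Genes of intermediate filaments and dense bodies went in both directions. Des (chr1:75360329-75368579), the muscle intermediate filament desmin, had 505, 738 and 565 CPM untreated and 388, 334 and 493 colitic. All colitic libraries were below all untreated ones, yet the log2 fold change of -0.50 (SE 0.19) had an edgeR adjusted p of 0.0707. Synm, synemin, which joins desmin filaments to adhesions, was lower at -0.55 (SE 0.15, edgeR adjusted p = 0.0160), under 2-fold, and Synpo2 was at -0.38 with an edgeR adjusted p of 0.0712.

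Csrp1 (chr1:135720061-135752232, plus strand), a LIM protein of actin bundles, rose. Csrp1 had 294, 361 and 350 CPM in untreated fl/fl libraries and 712, 699 and 866 in colitic ones, a log2 fold change of 1.25 (SE 0.16, edgeR adjusted p = 0.000226). Smtn, smoothelin, a protein of contractile muscle, was higher at 0.60 (SE 0.13, edgeR adjusted p = 0.00613), again in every colitic library.

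Of the 5 adhesion and cross-linking genes, Flna and Pgm5 rose. Flna (chrX:74223461-74249820, minus strand), filamin A, an actin cross-linker of most cell types, had 880, 991 and 926 CPM untreated and 1764, 1720.4 and 1925 colitic (log2 fold change 1.02, SE 0.14, edgeR adjusted p = 0.000385). Pgm5 (chr19:24683016-24861855), aciculin, which sits in adhesion plaques, had 51.8, 67.4 and 71.5 CPM untreated and 150, 117 and 163 colitic (1.24, SE 0.18, edgeR adjusted p = 0.000431). Both stood clear of the untreated range. Actn1, an alpha actinin, was higher at 0.55 (SE 0.16, edgeR adjusted p = 0.0229). Vcl, vinculin, was at 0.13 and Itga8, an integrin of smooth muscle and stroma, at -0.01, with overlapping libraries.

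The 6 genes of calcium stores, potassium channels and cyclic nucleotides also split. Casq2 (chr3:102086415-102146514), the calcium-binding calsequestrin of the sarcoplasmic reticulum, had 4.85, 4.54 and 5.95 CPM untreated and 1.79, 1.85 and 1.77 colitic, a log2 fold change of -1.43 (SE 0.27, edgeR adjusted p = 0.00249). With limma on log2(FPKM + 1) Casq2 was at -0.76, short of the fold threshold. Kcnmb1 (chr11:33963013-33973641), the muscle subunit of the large-conductance calcium-activated potassium channel, had 11.4, 12.9 and 14.5 CPM untreated and 23.9, 26.7 and 23.8 colitic (1.01, SE 0.17, edgeR adjusted p = 0.00118). Its pore, Kcnma1, was higher at 0.69 (SE 0.17, edgeR adjusted p = 0.0115), so both subunits were higher in every colitic library. Pde5a, which breaks down cyclic GMP, was at 0.54 (SE 0.16, edgeR adjusted p = 0.0263). Pln, phospholamban, ran from 1.36 to 6.02 CPM untreated and from 1.57 to 3.41 colitic (log2 fold change -0.80, interval -1.94 to 0.35), and was called at -1.20 without untreated fl/fl replicate 1, and Hspb6 was at 0.06. Kcnmb1 and Flna sat at the fold threshold: without untreated fl/fl replicate 1 they were at 0.92 and 0.98, without untreated fl/fl replicate 2 Kcnmb1 was at 0.99, without colitic fl/fl replicate 2 it was at 0.93, and without colitic fl/fl replicate 3 Flna was at 0.95.

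Myocd (chr11:65176561-65269989, minus strand) had 3.18, 6.02 and 8.14 CPM in untreated fl/fl libraries and 13.5, 9.66 and 9.87 in colitic ones. The colitic libraries were all higher, at a log2 fold change of 0.99 (SE 0.32, edgeR adjusted p = 0.0370), just under 2-fold. It passed 2-fold without untreated fl/fl replicate 3 (1.33), colitic fl/fl replicate 2 (1.06) or colitic fl/fl replicate 3 (1.04). Srf (chr17:46548329-46556175) had 77.0, 68.0 and 48.2 CPM untreated and 85.3, 70.0 and 71.4 colitic, which overlapped (0.30, edgeR adjusted p = 0.214). Myl9, Vcl and Srf, the members with an exact CArG box, were thus at 0.31, 0.13 and 0.30, and none passed the test.

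In all, libraries of untreated and colitic fl/fl mice did not overlap for 18 members, 13 higher and 5 lower (62.1%), against 49.3% of all genes.

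The actins were then set against each other, a comparison chosen after their values were seen. Acta2 and Actg2 arise from separate genes, and reads that fit both would blur them. Their coding sequences, 1134 and 1131 bases, were 84.3% identical with a longest identical run of 29 bases, so reads longer than that differ somewhere in coding sequence. A stretch of 30 coding bases with the most differences (bases 819 to 848 of Acta2 and 816 to 845 of Actg2, GENCODE M21) is shown to make that visible, with the 10 differing bases in capitals.
Acta2: agcGggCatCcaCgaaacCacCtaTaaCAG
Actg2: agcTggAatTcaTgaaacAacAtaCaaTTC

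On the FPKM scale the ratio of Acta2 to Actg2 was 1.18, 0.844 and 1.03 in untreated fl/fl libraries and 0.850, 0.991 and 1.12 in untreated iΔmye. It was 2.04, 2.23 and 1.67 in colitic fl/fl libraries and 1.996, 1.56 and 1.84 in colitic iΔmye. All 6 colitic libraries were above all 6 untreated ones. Group means were 1.02 ± 0.170 and 0.987 ± 0.135 untreated (SD, n = 3), and 1.98 ± 0.284 and 1.799 ± 0.221 colitic. On the log2 scale the difference was 0.96 in fl/fl and 0.87 in iΔmye mice, each at p = 0.1 by an exact two-sided permutation test, the smallest p that 3 against 3 libraries allow. The colitic genotypes overlapped (difference -0.13, exact p = 0.4). Over the 28 ratio comparisons made here, every Benjamini-Hochberg adjusted p was at least 0.187.

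**Figure D3:**
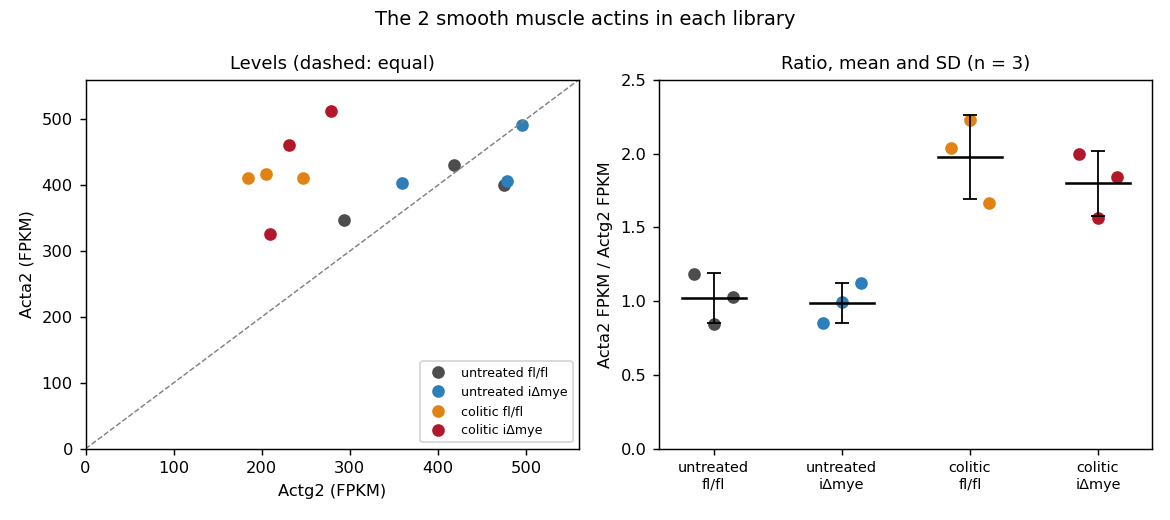
Left, FPKM of Acta2 against Actg2 in each of the 12 libraries, with a dashed line of equal level; right, their ratio per library with group mean and SD (n = 3). Untreated libraries lie near the line and all 6 colitic libraries above it, at ratios from 1.56 to 2.23.

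Because a library can hold more or less muscle, 6 genes were set against the mean log2(FPKM + 0.1) of Myh11, Actg2, Des, Cnn1, Lmod1 and Synm of the same library. Flna relative to these genes was 1.24 higher on the log2 scale in colitic than in untreated fl/fl libraries and 0.89 higher in iΔmye. Actn1 was 0.76 and 0.69 higher, and Acta2 0.31 and 0.47 higher. The mean of the reference genes was itself lower after DSS, at 6.21 in untreated and 5.98 in colitic fl/fl libraries, with overlap, and at 6.47 and 5.98 in iΔmye, without overlap. The log2 fold change of Acta2 itself after DSS in iΔmye mice was -0.01, and that of Actn1 was 0.19. For the ratios of Flna, Actn1 and Acta2 the libraries did not overlap (exact permutation p = 0.1, the smallest possible). Myocd was 1.21 higher in fl/fl, without overlap, and 0.50 higher in iΔmye, with overlap. With a pseudocount of 1 the value in fl/fl was 0.79. Srf (0.54 and 0.35) and Vcl (0.33 and 0.54) overlapped in both genotypes. Between genotypes, colitic iΔmye libraries lay below all colitic fl/fl ones in the ratios of Myocd (-0.89), Flna (-0.52), Srf (-0.50) and Actn1 (-0.34), and untreated iΔmye libraries below untreated fl/fl ones in those of Flna (-0.17) and Actn1 (-0.26), each at the same smallest exact p. Adjusted over the 28 ratio comparisons made, that p was 0.187.

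In Tmem173iΔmye mice no member was called after DSS, against 1.48% of all genes called higher and 0.597% lower. By edgeR, 9 members (31.0%) had an unadjusted p under 0.05, 3 higher and 6 lower, against 15.6% of all genes. DESeq2 and limma also called none at the same thresholds. The lowest member adjusted p was 0.00355 by DESeq2, 0.0149 by edgeR fitted on all 12 libraries and 0.0219 by edgeR without the filter. It was 0.177 by limma on log2(FPKM + 0.1) and 0.105 on log2(FPKM + 1). Members that passed the adjusted p in these fits missed the fold threshold. Actg2 had 762, 789 and 569 CPM in untreated iΔmye libraries and 361, 330 and 445 in colitic ones. Its log2 fold change of -0.90 (SE 0.22, edgeR adjusted p = 0.0653) was close to that in fl/fl mice, and the difference between genotypes was 0.05 (interval -0.59 to 0.69). Without colitic iΔmye replicate 5 Actg2 was called, at -1.005. Des had 754, 747 and 681 CPM untreated and 463, 339 and 453 colitic (-0.80, SE 0.20, edgeR adjusted p = 0.0797). All colitic libraries of both genes lay below all untreated ones.

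Cald1 had 266, 228 and 205 CPM in untreated iΔmye libraries and 426, 351 and 484 in colitic ones (0.85, SE 0.21, edgeR adjusted p = 0.0731). Kcnma1 was at 0.63, Casq2 at -0.92 and Cnn1 at -0.51 with intervals off 0 but adjusted p of 0.165, 0.252 and 0.258 by edgeR. Acta2 had 741, 895 and 729 CPM untreated and 823, 590 and 937 colitic (-0.01, interval -0.51 to 0.48). Cnn1 had 424, 446 and 393 CPM untreated and 281, 248 and 357 colitic. Myh11 had 1233, 1018 and 1045 CPM untreated and 1123, 816 and 927 colitic, and the ranges overlapped. Myocd had 6.01, 5.15 and 6.07 CPM untreated and 8.34, 5.04 and 4.43 colitic, and Srf 62.3, 49.0 and 71.8 untreated and 68.6, 47.0 and 49.96 colitic. Both overlapped. Libraries did not overlap for 12 members, 5 higher and 7 lower (41.4%), against 21.5% of all genes. The median log2 fold change was 0.04 (-0.05 to 0.16 when single libraries were left out), and that of all genes 0.02.

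In untreated colon the genotypes showed no called member and no called gene (0% of all genes in either direction). Tpm2 (0.45, interval 0.15 to 0.75) and Myl9 (0.44, interval 0.11 to 0.78) had an unadjusted p under 0.05 by edgeR, as did 720 genes in all (2.99%), and every member's adjusted p was 1. DESeq2 and limma called no member. The largest member difference was 0.45. In all, 22 members were above and 7 below 0, with a median of 0.14 against 0.00 for all genes. The member median ran from 0.06 to 0.22 when single libraries were left out. Libraries did not overlap for 4 members, all higher in iΔmye mice (13.8%), against 7.35% of all genes.

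In colitic colon no member was called between genotypes either, against 0.822% of all genes called higher in iΔmye mice and 1.99% lower. By edgeR, 6 members (20.7%) had an unadjusted p under 0.05, against 20.2% of all genes, so their number was at the background. All 6 were lower in iΔmye mice. DESeq2 and limma called none at the same thresholds. The lowest member adjusted p was 0.00164 by DESeq2, 0.00668 by edgeR fitted on all 12 libraries and 0.0466 by edgeR without the filter. It was 0.0495 by limma on log2(FPKM + 1) and 0.105 on log2(FPKM + 0.1). Members that passed the adjusted p in these fits missed the fold threshold. Csrp1 had 712, 699 and 866 CPM in colitic fl/fl libraries and 418, 388 and 472 in colitic iΔmye ones. The groups did not overlap, with a log2 fold change of -0.84 (SE 0.20, edgeR adjusted p = 0.0644). Myocd was at -0.90 (SE 0.32, edgeR adjusted p = 0.165), with all 3 iΔmye libraries below all fl/fl ones, and was called at -1.24 without colitic iΔmye replicate 1. Cald1 was at -0.52, Smtn at -0.44, Pgm5 at -0.50 and Srf at -0.46, with edgeR adjusted p from 0.221 to 0.246. Actg2 (0.21), Des (0.04), Cnn1 (0.00) and Acta2 (0.10) had intervals on both sides of 0. Libraries did not overlap for 10 members, 2 higher and 8 lower (34.5%), against 26.8% of all genes.

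**Figure D4:**
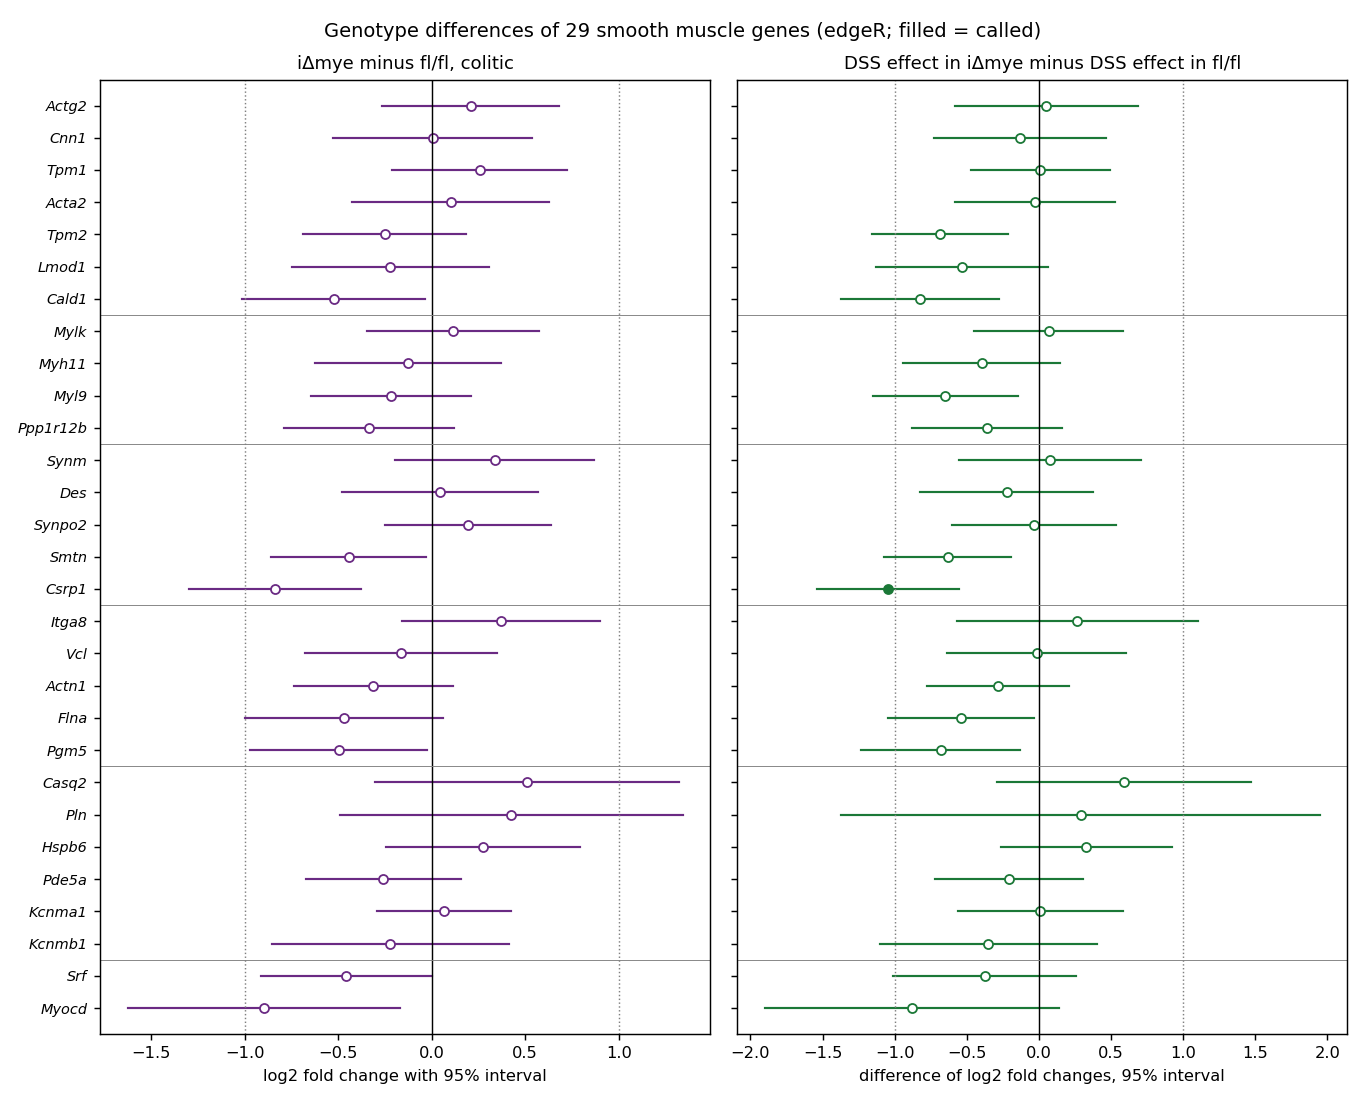
Left, log2 fold changes of colitic iΔmye against colitic fl/fl libraries for the 29 genes; right, the DSS effect in iΔmye mice minus that in fl/fl mice; bars are 95% intervals from edgeR, and filled symbols are called genes. Only Csrp1 on the right is filled, at -1.05.

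The difference between the DSS effects of the genotypes was tested as an interaction over all 12 libraries. Csrp1 was the single member called, against 0.934% of all genes called with a positive difference (effect in iΔmye minus effect in fl/fl mice) and 1.61% with a negative one. Its DSS effect was 1.25 in fl/fl and 0.13 in iΔmye mice in the separate fits, and the difference in the joint fit was -1.05 (SE 0.23, edgeR adjusted p = 0.0298). The call was lost in 8 of 12 fits that left out 1 library, with adjusted p up to 0.0810 and the difference between -1.10 and -0.96 in those 8. The 8 libraries are all 3 of each untreated group, colitic fl/fl replicate 3 and colitic iΔmye replicate 2. By edgeR, 7 members (24.1%) had an unadjusted p under 0.05, against 18.1% of all genes, all with a negative difference: Csrp1, Cald1 (-0.82, adjusted p = 0.103), Tpm2 (-0.69), Pgm5 (-0.68), Myl9 (-0.65), Smtn (-0.63) and Flna (-0.54). Tpm2 and Myl9 were above 0 in fl/fl mice (0.29 and 0.31) and below 0 in iΔmye mice (-0.47 and -0.42). For Myocd the difference was -0.88 (interval -1.90 to 0.14).

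Other genes of the contractile pathway were taken from lists, with 32 further contractile and regulatory genes and 22 of membrane and calcium signalling. In fl/fl mice DSS raised 10 and lowered 2 of the 32 (median log2 fold change 0.52), and 20 were not called, against 14.9% of all genes called higher and 7.61% lower. The largest changes were Sorbs3 (2.56), vinexin of adhesion sites, the gut mesenchyme factors Foxf1 (2.54) and Nkx3-2 (2.24), and Filip1 (2.11). Foxf1 had 23.3, 17.2 and 22.0 CPM untreated and 125, 107 and 114 colitic. Fhl1, a LIM protein of muscle (-1.17), and Klf4, which the epithelium also expresses (-1.27), fell. In iΔmye mice none of the 32 was called (median 0.18), against 1.48% and 0.597% of all genes. Between colitic genotypes Sorbs3 (-1.36), Foxf1 (-1.47) and Foxf2 (-1.41) were lower in iΔmye mice, and the interaction was called for these and for Filip1.

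Of the 22 membrane and calcium signalling genes, 14 rose and 1 fell in fl/fl mice (median 1.32), and 5 rose in iΔmye mice (median 0.53), to be set against the same shares of all genes. Kcnj8 and Abcc9 form an ATP-sensitive potassium channel of pericytes and vascular muscle. Kcnj8 had 8.41, 10.97 and 10.3 CPM in untreated fl/fl libraries and 206, 245 and 235 in colitic ones, a log2 fold change of 4.60 (SE 0.17), and 68.3, 49.7 and 55.7 CPM in colitic iΔmye libraries. Abcc9 was at 3.32 in fl/fl and 2.35 in iΔmye mice. Tacr1, a receptor of substance P, had 3.79, 4.06 and 3.76 CPM in untreated fl/fl libraries and 50.1, 41.3 and 54.3 in colitic ones (3.72), and rose by 3.29 in iΔmye mice. Cacna1c, the L-type calcium channel that brings calcium in for contraction, rose by 2.002 and 1.39. Htr4, a serotonin receptor, fell by 2.995 in fl/fl mice. Kcnj8 (-1.99) and Trpc6 (-1.82) were lower in colitic iΔmye than in colitic fl/fl mice.

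Among 14 paralogs of the members, which share sequence with them, 1 rose in fl/fl mice after DSS, the non-muscle myosin Myh10 (1.74), and 1 fell, Acta1 (-1.45), the skeletal actin, at 3.35 FPKM untreated. These counts were not above the shares of all genes called. In iΔmye mice none was called after DSS. Between colitic genotypes Myl12b, a myosin regulatory light chain, was higher in iΔmye mice (1.33, edgeR adjusted p = 0.0213), and its interaction was positive (1.47, edgeR adjusted p = 0.00885). Actb, the actin of all cells, was at -0.06.

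Markers of other cells differed between the groups. Over all genes, DSS calls were 14.9% higher and 7.61% lower in fl/fl mice, and 1.48% and 0.597% in iΔmye mice. In colitic fl/fl libraries the 9 genes of pericytes and vascular muscle summed to between 300.2 and 307 FPKM, against 45.2 to 64.6 in untreated fl/fl, and 8 of the 9 rose. Colitic iΔmye libraries lay between, at 123 to 154. In iΔmye mice 2 of the 9 rose, Kcnj8 and Abcc9, which are also among the 22 membrane and calcium signalling genes. The 6 fibroblast genes went from 144 to 173 up to 1017 to 1275 FPKM in fl/fl mice and 296 to 416 in colitic iΔmye, the 6 endothelial genes from 13.9 to 16.5 up to 59.3 to 91.2 and 25.7 to 45.9, and the 14 genes of enteric neurons and glia from 32.3 to 38.8 up to 114 to 123 and 52.9 to 95.9. In fl/fl mice all 6, all 6 and 12 of the 14 rose, and in iΔmye mice 1, 0 and 3. The 3 genes of interstitial cells of Cajal, the pacemakers of the muscle layer, summed to 52.5 to 63.3 FPKM untreated and 28.0 to 29.99 colitic in fl/fl mice, and to 47.5 to 58.6 and 23.5 to 43.1 in iΔmye. In fl/fl mice Ano1 fell (-1.65), Etv1 rose (1.12) and Kit was not called (0.20), and in iΔmye mice none of the 3 was called (-0.78, 0.57 and -0.60). The 6 leukocyte genes went from 127 to 228 up to 758 to 880 in fl/fl mice, and from 77.9 to 103 up to 292 to 352 in iΔmye. Lyz2, the gene that drives the Cre, is among the 6. Between untreated genotypes Lyz2 was at -1.01 in iΔmye mice (interval -1.52 to -0.51) and was not called. In fl/fl mice 5 of the 6 rose and Ptprc, the common leukocyte antigen, was at -0.10, and 4 rose in iΔmye mice. The 7 epithelial genes summed to 5466 to 6792 FPKM untreated and 2005 to 3545 colitic in fl/fl mice, where 6 fell, and to 5824 to 7103 and 4393 to 5198 in iΔmye, where none was called (median -0.40). Flna, Actn1, Vcl and the short form of Cald1 are also made by fibroblasts, endothelium and leukocytes. The part of these cells in the member changes was not tested.

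**Figure D5:**
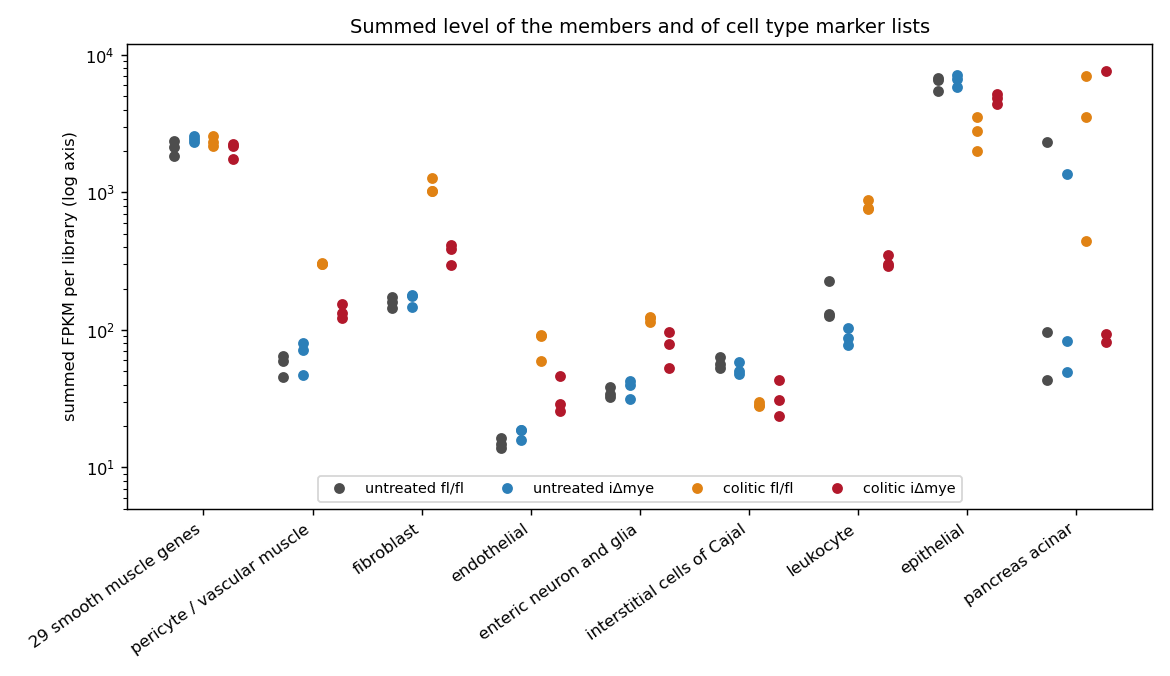
Summed FPKM per library (log axis) of the 29 smooth muscle genes and of marker lists for 8 other cell types; each point is a library, coloured by group. The sum of the 29 genes stays between 1741 and 2592, while the pericyte and vascular muscle list is highest in colitic fl/fl libraries and intermediate in colitic iΔmye libraries.

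Overlapping gene models limit a few members, since strand use in the counting was not stated and reads under exons of 2 genes on opposite strands may go uncounted. In GENCODE M21, 59.6% of the exonic bases of Pln, 25.5% of those of Vcl and 16.3% of those of Smtn lie under exons of a gene on the other strand. Tagln, a main protein of smooth muscle and not among the 29, was listed at only 3.91 to 5.12 FPKM in untreated fl/fl libraries, and 62.4% of its exonic bases lie under another gene model. The other members shared under 10% with any single model. For Myl12b, also not among the 29, 26.7% of exonic bases lie under a second gene model of that name on the same strand.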

How the data were processed

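The authors deposited a single gene table with raw counts and FPKM (counts scaled by the authors to gene length and library size) for 12 libraries of total colon RNA. The submitters' processing notes name CASAVA 1.8, fastp, HISAT2 2.0.5, featureCounts 1.5.0-p3, DESeq2 1.20.0 and the GRCm38 (mm10) build. Strand use in counting was not given in the sources used here. The deposited log2 fold changes, p-values and group means are the authors' own comparisons and were not used.

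Genes with at least 0.1 FPKM in at least 3 libraries were tested with edgeR 4.0.16 (quasi-likelihood, TMM scaling, R 4.3.3) on counts, with Benjamini-Hochberg adjustment over all 24102 genes tested. Each comparison of 2 groups was fitted on its own 6 libraries and the interaction on all 12. SE is the log2 fold change divided by the square root of F, and intervals are 95%. Alternatives were DESeq2 1.42.0, its size factors, limma 3.58.1 on log2(FPKM + 0.1) or log2(FPKM + 1), no filter, a joint fit, the adjusted p alone, a replicate block and leaving out each library. The scripts were tested on simulated data.

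Acta2, Actg2, Myh11, Des, Cnn1, Myocd, Srf and each called member are given per library, other members by their fold change, and the 4 called genes of each further list with the largest change. Fhl1, Klf4, Foxf2, Cacna1c, Trpc6 and the paralogs were named after their values were seen. The members and lists were chosen with earlier results of these data known. The labels do not say that each library is a separate mouse, so p-values measure the spread between these libraries. Depth was 13823237 to 18718915 counts per library.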

Additional observations from a re-analysis of the deposited data

Results flagged for a closer look

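The DSS effect on Csrp1 differed between genotypes by -1.05 on the log2 scale in the interaction test over all 12 libraries (edgeR adjusted p = 0.0298). It was singled out because the difference between the genotypes was itself tested and passed. The call was lost in 8 of 12 fits that left out 1 library and with limma on log2(FPKM + 0.1) (adjusted p = 0.0524), and the direct comparison of colitic genotypes did not pass (edgeR adjusted p = 0.0644). Csrp1 rose in all 3 colitic fl/fl libraries, while the iΔmye libraries overlapped between untreated and colitic mice.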

How the results depend on the processing

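No called member changed direction under any alternative run. Some values that were not called did: the member median after DSS in iΔmye mice (0.04) was -0.07 with the replicate block and as low as -0.05 when single libraries were left out. Itga8, Hspb6 and Vcl after DSS in fl/fl mice, and the ratios of Acta2 and Vcl to the core genes between colitic genotypes, also changed sign under some settings. After DSS in fl/fl mice, 6 members were called, 3 with limma on log2(FPKM + 1), where Flna, Casq2 and Kcnmb1 were lost, 15 by the adjusted p alone, and 5 to 7 when single libraries were left out. In iΔmye mice the count of 0 became 1 with the replicate block (Actg2, -1.17) and was 0 to 1 when single libraries were left out. Between colitic genotypes it was 0 to 1 when single libraries were left out. The interaction call of Csrp1 was 0 with limma on log2(FPKM + 0.1) (adjusted p = 0.0524) and 0 to 1 when single libraries were left out. Myocd relative to the core genes was 0.79 higher with a pseudocount of 1, against 1.21. Kcnmb1 was at 0.99 with DESeq2, 0.97 with limma on log2(FPKM + 0.1) and 0.94 in the joint fit, and Flna at 0.95 in the joint fit.

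Correlations between same-numbered libraries ran from -0.19 to 0.21, and the main fits did not pair them. With 3 libraries per group, this cannot exclude a shared litter or batch. Over all genes, the block moved the calls from 501 to 1369 after DSS in iΔmye mice and from 0 to 94 between untreated genotypes. Between colitic genotypes they went from 678 to 849, after DSS in fl/fl mice from 5422 to 4939, and in the interaction from 614 to 590. The replicate block left 6 members called in fl/fl mice and 1 in the interaction.

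Of the single-gene results, 267 kept their side of the threshold under other settings, 9 lost and 1 gained a call, not counting the adjusted p alone, which added 9 in fl/fl mice. Leaving out libraries kept 237, lost 13 and gained 8. Depth limits Pln, Casq2, Itga8 and Myocd, which had as few as 18, 26, 84 and 42 counts in a library.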
